A study of Mus musculus with 2 samples.

Results

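MHC class I and interferon-response genes were followed here across the endothelial cells (ECs), mural cells and intermediate cells of the mouse stria vascularis, the vascularised epithelium of the lateral wall of the cochlea. The 10 members were listed by name and matched by Ensembl ID, out of 27040 genes present in both count matrices. They are B2m, H2-K1 and H2-D1, which encode class I MHC, the interferon-induced transmembrane genes Ifitm1, Ifitm2 and Ifitm3, the tetherin gene Bst2, and the Ly6 genes Ly6e, Ly6a and Ly6c1. ECs carried the highest level of 9 of the 10 members, and Ifitm1 was highest in mural cells. The 3 Ly6 genes were close to 0 in mural and intermediate cells, while transcripts of B2m, H2-K1, H2-D1, Ifitm2, Ifitm3 and Bst2 were found in every class.

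The study prepared 1 single-cell RNA-seq library from each of 2 reporter mouse lines. The Tie2-GFP line carries GFP under the promoter of Tek (Tie2), and the NG2-DsRed line carries DsRed under the promoter of Cspg4 (NG2). Each library was made from stria cells pooled from the cochleae of mice aged 1 to 3 months, with no treatment or further allele named in the sources used here. The study describes sorting GFP or DsRed cells where enrichment was needed, without stating it for each library. The Tie2-GFP matrix held 633 barcodes and 5432289 unique molecular identifiers (UMIs), with a median of 6956 UMIs per barcode, and the NG2-DsRed matrix held 201 barcodes and 1232599 UMIs, with a median of 4322. No barcode name was shared by both matrices.

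With 1 pooled library per line there is no replicate and therefore no test. Line, any sort and library preparation cannot be told apart, so classes are compared within a library. Levels are UMIs summed over the barcodes of a class per 1000000 UMIs of that class (CPM), and every interval is an exact 95% interval for counting error only. UMIs are read near transcript ends, so the same gene is compared between classes and different genes are not ranked against each other. The major histocompatibility haplotype of the lines was not given in the sources used here, and both matrices were counted on the mouse reference.

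Barcodes were assigned by rule genes that include no member. A barcode was endothelial with a UMI in at least 4 of Pecam1, Cdh5, Cldn5, Flt1, Egfl7 and Ramp2. It was mural with at least 3 of Pdgfrb, Rgs5, Vtn and Notch3 and at most 1 of the endothelial genes, and intermediate with Dct, Tyr and Kcnj10 all present. The Tie2-GFP library gave 379 ECs and 87 intermediate cells, with median depths of 7431 and 15955 UMIs. The NG2-DsRed library gave 58 ECs, 97 mural cells and 23 intermediate cells, with median depths of 9146, 3027 and 10383 UMIs. Only 4 Tie2-GFP barcodes were mural, so mural cells are described in the NG2-DsRed library alone.

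The labels call the Tie2-GFP cells endothelial and the NG2-DsRed cells pericytes, whereas 379 of 633 and 97 of 201 barcodes met the endothelial and the mural rule. Markers outside the rule followed the class names. The sum of 11 further endothelial markers was 5841 CPM in ECs and 38.0 CPM in intermediate cells of the Tie2-GFP library. That of 11 further mural markers reached 12577 CPM in NG2-DsRed mural cells, and they still reached 2036 CPM in the ECs of that library, where 42 of 58 barcodes held UMIs of at least 2 mural rule genes. Intermediate cells carried Schwann-cell markers at 1217 CPM (Tie2-GFP) and 1237 CPM (NG2-DsRed) beside 4638 and 4266 CPM of 8 further intermediate-cell markers. Most Tie2-GFP intermediate cells lay above the study's mitochondrial limit of 5%, with a median mitochondrial share of 9.31%. In NG2-DsRed intermediate cells that median was 5.55%, and 7 of 23 lay within all of the study's quality limits. Across all classes 18 macrophage and leukocyte markers summed to between 0 and 30.1 CPM, and Ptprc, the pan-leukocyte gene, was at 0 in each.

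Class I MHC presents peptides from inside the cell to CD8+ T cells on a heavy chain (H2-K1 or H2-D1 here) held by the light chain beta-2-microglobulin, B2m. Interferons raise class I and a broad set of antiviral genes through the JAK and STAT pathway and interferon regulatory factors. Among those antiviral genes, the Ifitm proteins hinder entry of enveloped viruses and Bst2 tethers budding virions to the cell surface. Ly6e, Ly6a (Sca-1) and Ly6c1 are small GPI-anchored surface proteins that interferon can raise, and Ly6a and Ly6c1 are well known on mouse vascular endothelium, including that of the brain.

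The members sit in 5 places of the genome (build GRCm38, GENCODE M21 annotation). H2-K1 (chr17:33996017-34000347, minus strand) and H2-D1 (chr17:35262730-35267499, plus strand) lie in the MHC, and B2m lies on another chromosome (chr2:122147686-122153083, plus strand). The Ifitm genes are neighbours on chromosome 7, Ifitm2 (chr7:140954837-140955987, minus strand), Ifitm1 (chr7:140967221-140969825, plus strand) and Ifitm3 (chr7:141009586-141010770, minus strand). Ly6e (chr15:74955051-74959905, plus strand), Ly6a (chr15:74994877-74998031, minus strand) and Ly6c1 (chr15:75044018-75048830, minus strand) are close together on chromosome 15, and Bst2 lies at chr8:71534255-71537456 on the minus strand. Sequence near the 3′ ends is shared for some. Of the 90-base stretches in the last 500 bases of annotated transcripts, 26.5% for Ifitm2 also occurred in Gm11951, Gm45717 or Gm8865, 13.8% for Ly6c1 in Ly6a or Ly6c2, 8.93% for H2-D1 and 2.31% for H2-K1 in other class I genes, and none for B2m, Ifitm1, Ifitm3, Bst2, Ly6e and Ly6a. Levels of Ifitm2, Ly6c1, H2-D1 and H2-K1 are uncertain to that extent. Patl2 overlaps B2m on the opposite strand.

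Promoters of 8 members were found in the RefSeq promoter set (GRCm38.p6, 250 bases before to 50 after the start), Ly6e and Ly6a not being among them. The letters AANNGAAA, part of the interferon-stimulated response element, were searched on both strands. They occurred in 6 of the 8, those of B2m, H2-K1, H2-D1, Ifitm2, Ifitm3 and Bst2, and in 23.9% of all 32851 promoters of that length. Stretches of 30 bases around these matches are shown because they set the class I heavy chains apart from the other members. Each is written 5′ to 3′ on the strand of the gene, with capitals for AANNGAAA on either strand and for the string GGGATT followed by CCCC, which is of the NF-kB type.
B2m, chr2:122147528-122147557, plus strand: acgggactttataagaacatgaAACTGAAA
H2-K1, chr17:34000430-34000459, minus strand: tgGGGATTCCCCatctccacagTTTCACTT
H2-D1, chr17:35262922-35262951, plus strand: tgGGGATTCCCCatctcctcagTTTCACTT
Ifitm2, chr7:140955998-140956027, minus strand: ggagactaacccaccaacaggaAAAGGAAA
Ifitm3, chr7:141010716-141010745, minus strand: caggaAAAGGAAActtctgagaAACCGAAA
Bst2, chr8:71537587-71537616, minus strand: taggggcattccaggaAAATGAAACTGAAA

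The H2-K1 and H2-D1 promoters shared an identical run of 47 bases, and both held GGGATT followed directly by CCCC, which occurred on either strand in 28 of all promoters (0.0852%). The longer string of GAAA, any 2 bases and GAAA, which contains AANNGAAA, occurred in B2m, Ifitm2, Ifitm3 and Bst2 and in 3.44% of all promoters. Bst2 and Ifitm3 had more than 1 match to AANNGAAA, 3 and 2 respectively. The matches in Ifitm3 lay after the start, at positions 5 and 22, and those in B2m, H2-K1, H2-D1 and Ifitm2 lay at -137, -90, -150 and -44. The windows of Ifitm1 and Ly6c1 held no AANNGAAA. Only the first promoter entry of each gene was searched. The Ifitm1 window opened at chr7:140967826, inside the annotated gene, which starts at 140967221. Bases before that annotated start were thus not searched. The H2-D1 match at 35262922 likewise lay inside its annotated gene, which starts at 35262730, so -150 counts from a start within that gene. The strings were chosen with the members' levels known, and a match is a description of these letters and not of binding.

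The Ly6 genes showed the sharpest separation of ECs from the other classes. Ly6c1 stood at 1437 CPM in Tie2-GFP ECs and 1366 CPM in NG2-DsRed ECs, against 3.80 CPM in Tie2-GFP intermediate cells, 6.02 CPM in mural cells and 0 in NG2-DsRed intermediate cells. Ly6e stood at 1184 and 857 CPM in the ECs of the 2 libraries, against 4.57, 6.02 and 0 CPM in the same order. Ly6a stood at 1084 and 1479 CPM in ECs, against 7.61 CPM in Tie2-GFP intermediate cells, 3.01 CPM in mural cells and 8.16 CPM in NG2-DsRed intermediate cells. For each of the 3 genes the EC levels were far above the other classes, whose own intervals overlapped one another.

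The ratio of Tie2-GFP ECs to intermediate cells was 378-fold for Ly6c1 (interval 162 to 1164), 259-fold for Ly6e (119 to 707) and 142-fold for Ly6a (77.3 to 297). NG2-DsRed mural cells held 2 UMIs of Ly6c1, 2 of Ly6e and 1 of Ly6a, so the EC to mural ratios of 227-fold (62.6 to 1878), 142-fold (39.2 to 1179) and 491-fold (88.0 to 19431) have wide intervals. NG2-DsRed intermediate cells held no UMI of Ly6c1 or Ly6e. Taken against 3 UMIs in that class, ECs were at least 112-fold higher for Ly6c1 and at least 69.9-fold higher for Ly6e.

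Nearly every EC carried these transcripts. Ly6c1 was detected in 97.1% of Tie2-GFP ECs and 96.6% of NG2-DsRed ECs, and in 4.60% of the deeper Tie2-GFP intermediate cells and 2.06% of mural cells. Ly6e was detected in 97.6% and 94.8% of ECs, and in 5.75% of Tie2-GFP intermediate cells. Ly6a was detected in 94.2% and 98.3% of ECs, and in 9.20% of Tie2-GFP intermediate cells. With barcodes thinned to 2535 UMIs, which leaves out 35 of 97 mural cells and 24 or fewer of any other class, the share of Tie2-GFP ECs with a UMI was 93.2% for Ly6c1, 92.3% for Ly6e and 83.1% for Ly6a, and it was 2.21% or less for these genes in Tie2-GFP intermediate cells.

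The low Ly6 levels outside ECs were in the range of endothelial markers in the same barcodes. The 11 endothelial markers outside the rule had a median of 0.220% of their EC level in Tie2-GFP intermediate cells, with 6.41% (Eng) the highest. The Ly6 members had 0.265% (Ly6c1), 0.386% (Ly6e) and 0.702% (Ly6a). The other 7 members had from 17.9% (H2-D1) to 36.4% (B2m), above every one of the 11 markers in that class. For Ifitm1, at 26.0%, this rests on 15 UMIs in 3 of 87 barcodes and on an EC level of only 44.0 CPM. In NG2-DsRed intermediate cells Eng, at 5.98%, was again the highest marker, with Ifitm1 below it at 2.81% and B2m, H2-K1, H2-D1, Ifitm2, Ifitm3 and Bst2 between 25.7% and 65.2%. Mural cells did not part in this way, since Esam stood at 80.5%, Eng at 34.4% and Emcn at 25.3% of their EC level, against 29.3% for B2m, 9.86% for Bst2 and 0.702% or less for the Ly6 members.

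**Figure D1:**
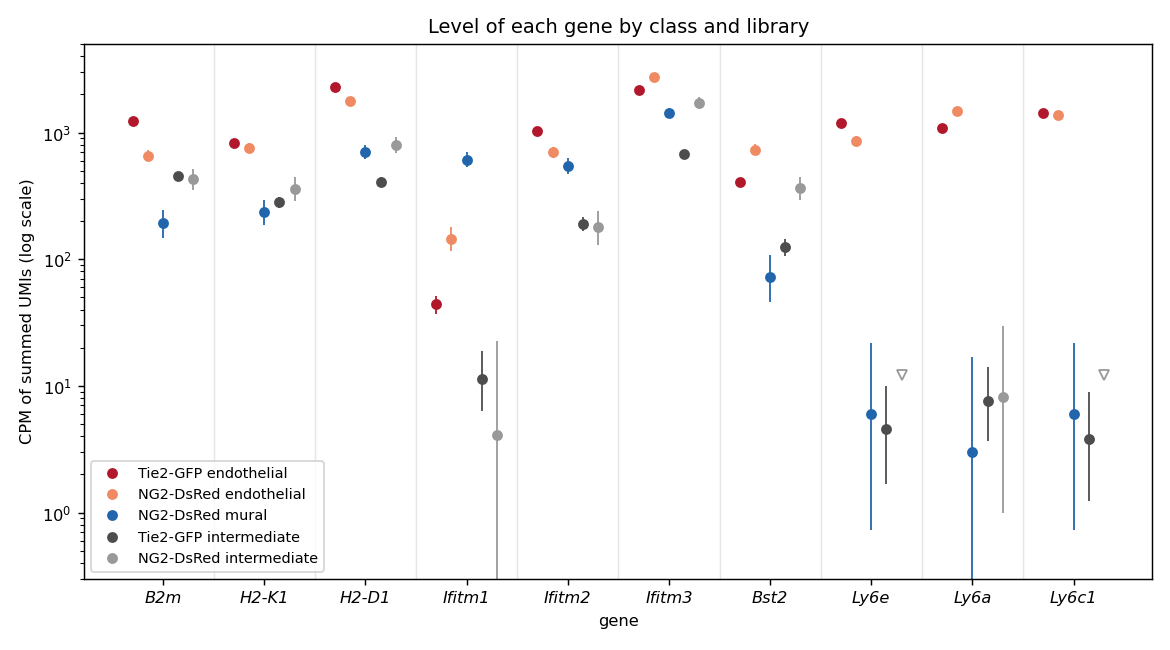
Level of each member (CPM of summed UMIs, log axis) in the 5 class and library combinations, with exact 95% Poisson intervals for counting error. Open triangles stand at the level of 3 UMIs for Ly6e and Ly6c1 in NG2-DsRed intermediate cells, where the count was 0. The 3 Ly6 genes lie between 857 and 1479 CPM in ECs and at 8.16 CPM or below elsewhere, while Ifitm1 is highest in mural cells at 611 CPM.

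The class I genes were present in every class and highest in ECs. B2m, the light chain, stood at 1238 CPM in Tie2-GFP ECs, 657 CPM in NG2-DsRed ECs, 451 and 429 CPM in Tie2-GFP and NG2-DsRed intermediate cells, and 193 CPM in mural cells. H2-D1 stood at 2274 and 1759 CPM in ECs, 407 and 796 CPM in intermediate cells and 701 CPM in mural cells. H2-K1 stood at 830.5 and 757 CPM in ECs, 281 and 359 CPM in intermediate cells and 235 CPM in mural cells. The order of the lower classes differed by gene, since mural cells were below Tie2-GFP intermediate cells for B2m and above them for H2-D1. Neighbours in that order with overlapping intervals were both intermediate classes for B2m, NG2-DsRed intermediate and mural cells for H2-D1, and all 3 lower classes in sequence for H2-K1.

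In the Tie2-GFP library ECs were above intermediate cells 2.75-fold for B2m (2.52 to 3.00), 2.96-fold for H2-K1 (2.65 to 3.31) and 5.59-fold for H2-D1 (5.12 to 6.11). NG2-DsRed ECs were above mural cells 3.41-fold for B2m (2.61 to 4.52), 3.22-fold for H2-K1 (2.53 to 4.16) and 2.51-fold for H2-D1 (2.17 to 2.91). Against intermediate cells of the same library they were higher by less, 1.53-fold for B2m (1.23 to 1.92), 2.11-fold for H2-K1 (1.67 to 2.68) and 2.21-fold for H2-D1 (1.89 to 2.59). Intermediate cells were above mural cells 2.23-fold for B2m (1.62 to 3.09) and 1.53-fold for H2-K1 (1.12 to 2.10). For H2-D1 that ratio was 1.14 (0.934 to 1.38), an interval that spans 1.

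The share of barcodes with a class I UMI depended on depth as well as level. B2m was detected in 96.6% of Tie2-GFP ECs, 90.8% of Tie2-GFP intermediate cells and 38.1% of mural cells. At 2535 UMIs per barcode the shares were 90.3%, 64.2% and 36.8%. H2-D1 at that depth was detected in 98.1% of Tie2-GFP ECs, 57.1% of Tie2-GFP intermediate cells and 79.1% of mural cells.

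**Figure D2:**
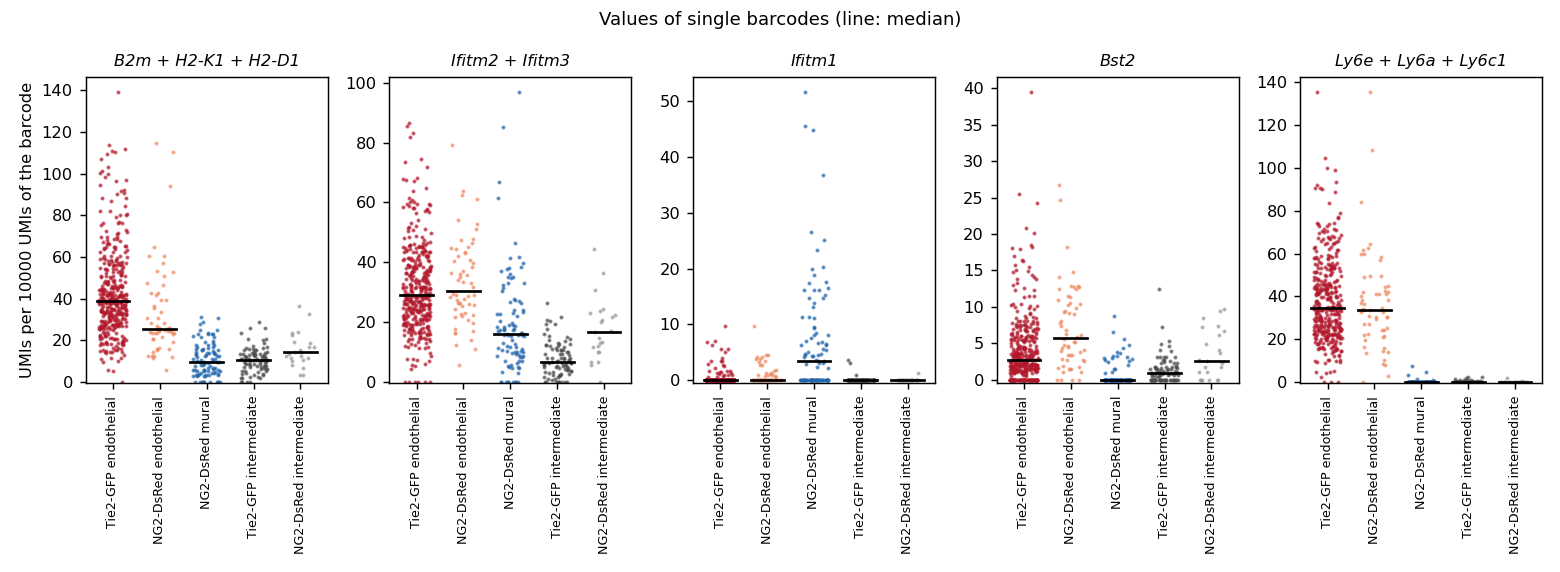
Members grouped by role, as UMIs per 10000 UMIs of each barcode (vertical axis), for each class and library, with 1 point per barcode and a line at the median. The sum of B2m, H2-K1 and H2-D1 has a median of 39.0 in Tie2-GFP ECs, 9.87 in mural cells and 10.7 in Tie2-GFP intermediate cells. The sum of the Ly6 members has a median of 0 in mural and intermediate cells.

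Ifitm2 and Ifitm3, and Bst2, also had their highest levels in ECs. Ifitm3, which acts on virus in endosomes, stood at 2164 and 2757 CPM in Tie2-GFP and NG2-DsRed ECs, 683 and 1723 CPM in intermediate cells and 1426 CPM in mural cells. Ifitm2 stood at 1029 and 699 CPM in ECs, 191 and 179.6 CPM in intermediate cells and 545 CPM in mural cells. Bst2 stood at 408 and 732 CPM in ECs, 124 and 363 CPM in intermediate cells and 72.2 CPM in mural cells. Mural cells thus carried Ifitm2 and Ifitm3 within 2-fold of all 58 ECs of their library, 42 of which held at least 2 mural rule genes. In the other 16 ECs Ifitm2 stood at 620 CPM and Ifitm3 at 3220 CPM, more than 2-fold above the mural level for Ifitm3. Mural cells were lowest for Bst2, with an interval that overlapped that of Tie2-GFP intermediate cells.

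The ratio of ECs to mural cells in the NG2-DsRed library was 1.28-fold for Ifitm2 (1.07 to 1.54), 1.93-fold for Ifitm3 (1.74 to 2.15) and 10.1-fold for Bst2 (6.72 to 16.0). Tie2-GFP ECs were above intermediate cells 5.39-fold for Ifitm2 (4.74 to 6.15), 3.17-fold for Ifitm3 (2.96 to 3.40) and 3.29-fold for Bst2 (2.79 to 3.89). The same ratio in NG2-DsRed was 3.89-fold for Ifitm2 (2.85 to 5.44), 1.60-fold for Ifitm3 (1.44 to 1.79) and 2.02-fold for Bst2 (1.60 to 2.56). Bst2 was 5.03-fold higher in intermediate than mural cells (3.18 to 8.26), and Ifitm2 was 3.03-fold higher in mural than intermediate cells (2.17 to 4.32).

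Ifitm1 ran the other way from the rest of its family. It stood at 611 CPM in mural cells, 145 CPM in NG2-DsRed ECs, 44.0 CPM in Tie2-GFP ECs, 11.4 CPM in Tie2-GFP intermediate cells and 4.08 CPM in NG2-DsRed intermediate cells. Mural cells were 4.20-fold above ECs of their library (3.24 to 5.49), and 55.7% of mural barcodes held a UMI against 37.9% of the deeper EC barcodes. In NG2-DsRed intermediate cells only 1 UMI of Ifitm1 was counted, so the mural to intermediate ratio of 149.6-fold has an interval of 26.6 to 5938.

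Ifitm1 in ECs lay in the barcodes that also held mural genes. The split was chosen after the values were seen. In the Tie2-GFP library 32 of 379 ECs held UMIs of at least 2 of the 4 mural rule genes, with a median depth of 17452 UMIs, and Ifitm1 stood at 263 CPM in them. In the other 347 ECs, with a median depth of 7233 UMIs, it stood at 2.77 CPM, a 95.1-fold difference (47.0 to 225). Of the 32 barcodes 68.8% held an Ifitm1 UMI, against 2.02% of the 347, and at 2535 UMIs the share in the 32 was 38.3%. Likewise Ifitm1 in NG2-DsRed stood at 178 CPM in the 42 ECs with at least 2 mural genes and 17.5 CPM in the other 16, a 10.2-fold difference (2.73 to 85.4).

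Mural markers outside the rule were also higher in the ECs chosen for mural rule genes. They summed to 1452 CPM in the 32 Tie2-GFP ECs and 60.9 CPM in the 347, and to 2483 and 253 CPM in the 2 NG2-DsRed groups. The split itself selects for mural markers, so this difference is no separate support for a link with Ifitm1. Doublets and free RNA were not separated from co-expression, and their part in these values was not tested. The remaining members changed little across the split in the Tie2-GFP library, with ratios between 0.684 (Ly6e) and 0.962 (Ifitm2) for barcodes with mural genes over those without. Within NG2-DsRed ECs H2-K1 was lower in barcodes with mural genes, at 607 against 1353 CPM, as were H2-D1 at 1554 against 2574 CPM and Ly6e at 767 against 1213 CPM. For H2-K1 the shares of thinned barcodes with a UMI were close, at 72.6% of 42 with mural genes and 73.7% of the 14 others kept. The NG2-DsRed EC with the most H2-K1 UMIs held 73 of 432, and its group is not given. The H2-K1 difference in CPM may therefore rest on few barcodes.

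**Figure D3:**
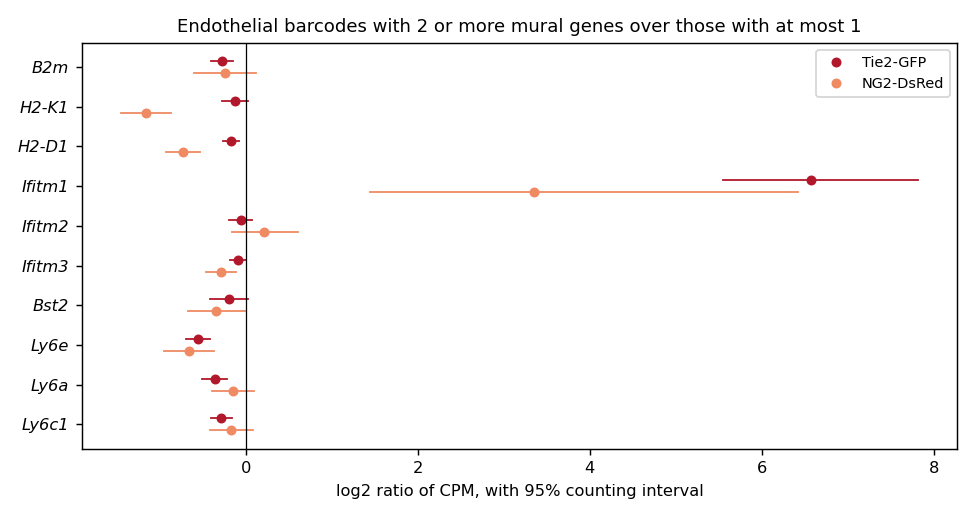
log2 ratio of CPM in ECs with at least 2 mural rule genes over ECs with at most 1, for each member and library, with exact 95% counting intervals. Ifitm1 lies at 6.57 in Tie2-GFP and 3.35 in NG2-DsRed, to the right of the other 9 members, which lie between -1.16 and 0.21.

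Within mural cells Ifitm1 was unevenly spread. Barcodes with UMIs of at least 2 contractile genes (40 of 97, median depth 3749 UMIs) were set against the other 57 (median depth 2528), a split also chosen after seeing the data. Ifitm1 stood at 318 CPM in the contractile group and 942 CPM in the rest, 2.97-fold higher in the rest (2.17 to 4.11). Ifitm3 was 1.80-fold higher in the rest (1.49 to 2.17), at 1865 against 1038 CPM, and B2m was 1.76-fold higher there (1.04 to 3.04), at 249.9 against 142 CPM. For H2-K1, H2-D1, Ifitm2 and Bst2 the intervals of the ratio spanned 1. Kcnj8 and Abcc9, which encode the vascular ATP-sensitive potassium channel of pericytes, were higher in the same group as Ifitm1, at 968 against 261 CPM and 1250 against 272 CPM.

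The count of members past a 2-fold difference is given with the share of all genes past it, among genes with at least 50 UMIs over both classes and without the rule genes. In the Tie2-GFP library all 10 members were at least 2-fold higher in ECs than in intermediate cells, where 29.1% of 8378 genes were. The call for Ifitm1, a log2 ratio of 1.95, depended on the barcodes kept. It turned to -0.20 with barcodes inside the study's quality limits, which leave 6 intermediate cells, and to -2.04 without barcodes that hold markers of another class.

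In the NG2-DsRed library 7 of 10 members were at least 2-fold higher in ECs than in mural cells, beside 15.7% of 3317 genes. The 3 that were not are Ifitm1, Ifitm2 and Ifitm3. For Ifitm3 this rests on all ECs, most of which held mural rule genes. Ifitm1 was the 1 member at least 2-fold higher in mural cells, a direction taken by 13.1% of the genes. Against intermediate cells of that library, 8 of 10 members were at least 2-fold higher in ECs, beside 30.1% of 2891 genes, B2m and Ifitm3 being the exceptions. The median gene was itself 0.27 higher in ECs on the log2 scale, and relative to it H2-K1 (0.80), H2-D1 (0.87) and Bst2 (0.74) fell under 2-fold, which left 5.

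Mural and intermediate cells differed less. Of the 7 members with enough UMIs, Ifitm1 and Ifitm2 were at least 2-fold higher in mural cells, beside 25.9% of 2136 genes. B2m and Bst2 were at least 2-fold higher in intermediate cells, beside 20.0% of the genes. Neither share sets the members apart from genes at large.

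**Figure D4:**
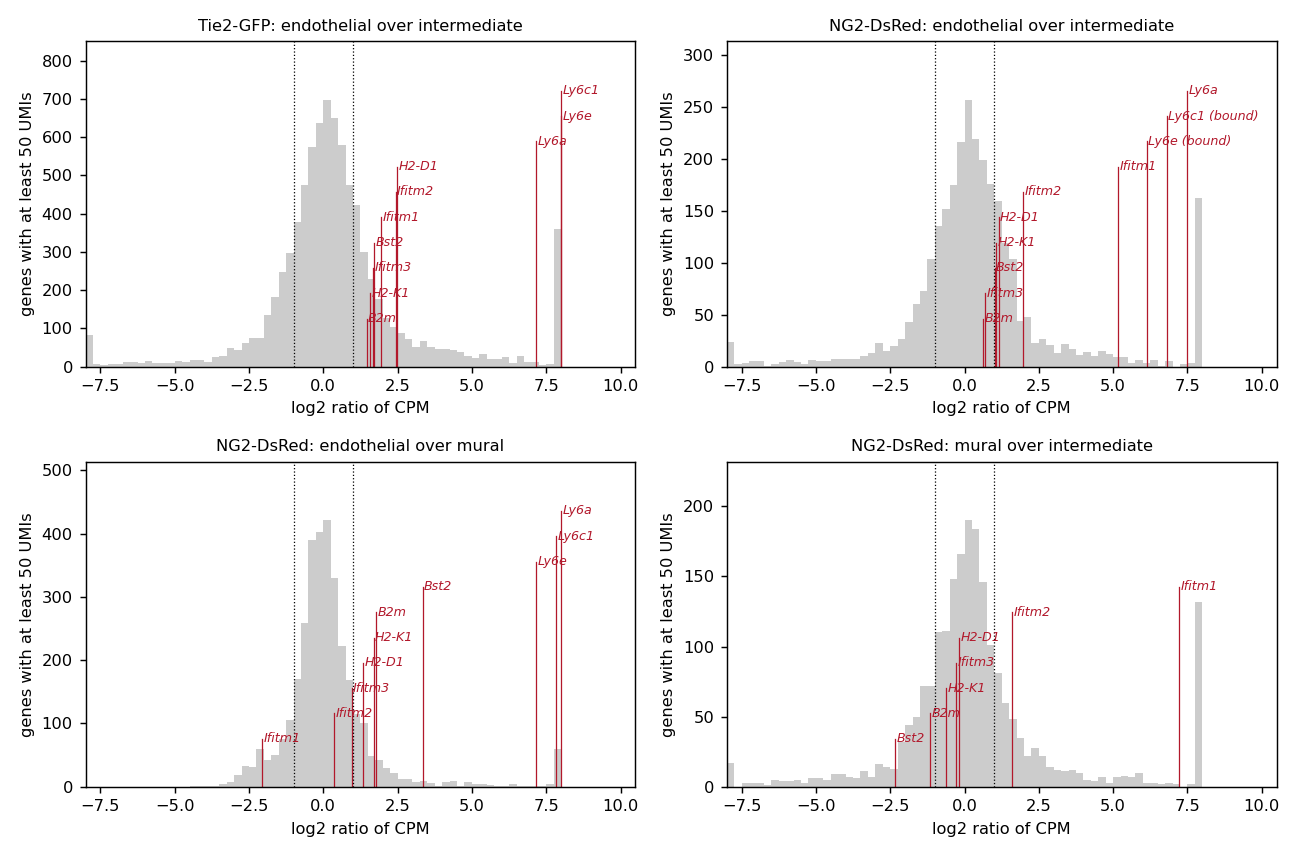
Histograms of the log2 ratio of CPM between 2 classes for all genes with at least 50 UMIs (grey, vertical axis in genes), with a labelled line for each member and dotted lines at a 2-fold difference either way. Line heights only separate the labels, values past 8 either way are drawn at 8 (Ly6e, 8.02, and Ly6c1, 8.56, in Tie2-GFP, Ly6a, 8.94, for ECs over mural cells, and genes at 0 in a class), and "bound" marks a ratio set by 3 UMIs. All 10 members lie right of the upper dotted line for ECs over intermediate cells in Tie2-GFP, and Ifitm1 lies left of the lower one, at -2.07, for ECs over mural cells.

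Genes that load peptide on class I split by function. Of 14 such genes 13 had enough UMIs in the Tie2-GFP library, and 9 were at least 2-fold higher in ECs and 2 in intermediate cells, with a median log2 ratio of 1.54 beside 0.23 for all genes. Of all genes 29.1% were at least 2-fold higher in ECs there. The share of all genes higher in intermediate cells than ECs is not given for this or any later list. Counts in that direction are therefore not read as results about a list. Psmb8, a subunit of the interferon-induced immunoproteasome, stood at 206 CPM in Tie2-GFP ECs and 4.57 CPM in intermediate cells, a 45.1-fold difference (20.6 to 123). Psme1, of the proteasome activator, stood at 266 and 91.3 CPM. The general endoplasmic reticulum chaperones were higher in intermediate cells, Canx at 392 against 167 CPM and Calr at 705 against 348 CPM, and Pdia3 stood at 579 against 340 CPM. In the NG2-DsRed library 4 of 10 genes of the list were at least 2-fold higher in ECs than in mural cells and none the reverse, with a median log2 of 0.91 beside 0.00044 for all genes. The shares of all genes were 15.7% higher in ECs and 13.1% higher in mural cells. Against NG2-DsRed intermediate cells 4 of 10 were higher in ECs, beside 30.1% of all genes, and 2 were higher in intermediate cells. The median log2 of 0.22 lay below the 0.27 of all genes. It covers fewer genes than in Tie2-GFP, since Tap1, Tapbpl and Erap1 had too few UMIs. Their log2 ratios were 0.44, 2.36 and 2.36, the last 2 resting on 1 intermediate UMI each. The medians of the libraries are therefore not compared.

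Most other class I heavy chains were higher in Tie2-GFP ECs than in intermediate cells, and some were not highest in ECs. Of those with enough UMIs in the Tie2-GFP library 8 of 10 were at least 2-fold higher in ECs than intermediate cells and none the reverse. The share of all genes higher in ECs was 29.1%, and the list had a median log2 of 2.13. H2-Q7, a non-classical chain, stood at 143 CPM in Tie2-GFP ECs and 1.52 CPM in intermediate cells, a 94.1-fold difference (25.9 to 779), and at 31.5 CPM in NG2-DsRed ECs. H2-Q4 stood at 241 and 177 CPM in the ECs, 7.61 and 8.16 CPM in intermediate cells and 39.1 CPM in mural cells. H2-T23 (Qa-1), which is recognised by natural killer cell receptors, stood at 155 CPM in Tie2-GFP ECs and 132 CPM in intermediate cells, with a ratio of 1.18 (0.991 to 1.41). It went the other way in NG2-DsRed, at 128 CPM in ECs and 200.04 CPM in intermediate cells, 1.56-fold higher in the latter (1.07 to 2.28), with 63.2 CPM in mural cells. Fcgrt, the neonatal Fc receptor that carries IgG across cells, stood at 121 and 186 CPM in ECs, 202 CPM in mural cells and 37.3 and 114 CPM in intermediate cells. Few of these genes had enough UMIs in NG2-DsRed, where 2 of 3 were at least 2-fold higher in ECs than mural cells and 1 of 3 than intermediate cells, with none the reverse. Among all genes the shares higher in ECs were 15.7% and 30.1% in the same order.

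Class II MHC presents extracellular peptides to CD4+ T cells. Of its 7 listed genes Cd74, H2-Aa and H2-Ab1 were detected in part of the ECs and were at or near 0 in the other classes. Cd74, the invariant chain, stood at 509 CPM in Tie2-GFP ECs and 268 CPM in NG2-DsRed ECs, 1.52 CPM in Tie2-GFP intermediate cells and 0 in the other classes. It was detected in 44.6% and 36.2% of ECs, against 2.30% of the deeper Tie2-GFP intermediate cells. H2-Aa stood at 105 and 56.1 CPM in the ECs and H2-Ab1 at 96.4 and 64.8 CPM, both at 0 in mural and intermediate cells, where a count of 3 UMIs would be 9.03 CPM in mural cells and 2.28 CPM in Tie2-GFP intermediate cells. In the Tie2-GFP library H2-DMa stood at 22.1 CPM in ECs and 7.61 CPM in intermediate cells, and H2-DMb1 at 23.3 and 5.33 CPM. NG2-DsRed H2-DMb1 stood at 12.3 CPM in ECs (7 UMIs) and 16.3 CPM in intermediate cells (4 UMIs). H2-Eb1 had 3 UMIs each in NG2-DsRed ECs (5.26 CPM) and mural cells (9.03 CPM). Ciita had 32 UMIs in Tie2-GFP ECs (9.32 CPM) and 0 in Tie2-GFP intermediate cells, and it had 0 in NG2-DsRed ECs. The 18 macrophage and leukocyte markers reached 5.82 CPM in all in Tie2-GFP ECs, with 11 of them at 0.

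Most interferon-induced genes with enough UMIs were higher in Tie2-GFP ECs than in intermediate cells. Of 47 listed genes in both matrices 40 had enough UMIs in the Tie2-GFP library, and 29 were at least 2-fold higher in ECs and 3 in intermediate cells, with a median log2 of 2.43. Of all genes 29.1% were at least 2-fold higher in ECs. Some of the list passed the UMI threshold through ECs alone, such as Sp100 (597 EC and 0 intermediate UMIs) and Gbp4 (523 and 0). The count therefore covers only the genes that passed. The share of all genes higher in intermediate cells than ECs is not given here for either library. Iigp1, a GTPase that acts on intracellular parasites, stood at 1046 CPM in Tie2-GFP ECs and 1.52 CPM in intermediate cells, where 2 UMIs were counted, a 687-fold ratio (190.2 to 5678). It stood at 110.4 CPM in NG2-DsRed ECs and 6.02 CPM in mural cells. Isg15, a ubiquitin-like modifier, stood at 337 and 291 CPM in ECs, 105 CPM in mural cells and 9.13 and 85.7 CPM in intermediate cells.

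The 3 genes at least 2-fold higher in Tie2-GFP intermediate cells were Ifi27, Ifi27l2a and Lgals3bp. Ifi27, of the mitochondrial membrane, stood at 1176 and 1114 CPM in intermediate cells and 234 and 215 CPM in ECs. Ifi27l2a stood at 1349 and 6740 CPM in intermediate cells, 199 and 228 CPM in ECs and 39.1 CPM in mural cells. Lgals3bp, a secreted glycoprotein, stood at 139 and 118 CPM in intermediate cells and 9.03 and 8.76 CPM in ECs. The list thus held genes in both directions, and the count of 3 has no share of all genes beside it.

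In the NG2-DsRed library 14 of 22 interferon-induced genes were at least 2-fold higher in ECs than mural cells and none the reverse. Some passed the UMI threshold through ECs, such as Sp100 (88 EC and 7 mural UMIs) and Iigp1 (63 and 2). The count therefore covers the genes that passed and is not read as a result about the whole list. The share of all genes higher in ECs was 15.7%, and the list had a median log2 of 1.61. Against intermediate cells 10 of 21 were higher in ECs, beside 30.1% of all genes, and 5 were higher in intermediate cells. The median log2 was 0.85 beside 0.27 for all genes. The 5, named after their values were seen, were Ifi27, Ifi27l2a, Ifit3, Ifit3b and Xaf1. Ifit3, which binds with other Ifit proteins to viral RNA, stood at 408 CPM in NG2-DsRed intermediate cells, 110.4 CPM in ECs and 21.1 CPM in mural cells, and at 20.6 CPM in Tie2-GFP intermediate cells. None of the 8 interferon-induced genes with enough UMIs was at least 2-fold higher in mural than intermediate cells, and 6 were lower by that much. Among all genes the shares were 25.9% higher and 20.0% lower in mural cells. The UMI threshold was set on both classes together. Ifit3 (7 mural and 100 intermediate UMIs) and Ifit3b (3 and 53) passed it through intermediate cells, while Ifi27 had 104 UMIs in mural cells. Ifi203, with 25 mural UMIs and 0 in intermediate cells, did not pass. The direction of the whole list therefore cannot be read from these 8 genes.

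Receptors and signal transducers of interferon were spread over the classes. Of 18 genes with enough UMIs in the Tie2-GFP library, 10 were at least 2-fold higher in ECs and 2 in intermediate cells, with a median log2 of 1.31. The share of all genes higher in ECs was 29.1%. Irf1, a transcription factor of class I and interferon genes, stood at 498 and 215 CPM in ECs, 93.3 CPM in mural cells and 20.6 and 12.3 CPM in intermediate cells. Socs3, a feedback inhibitor of JAK that other cytokines also raise, stood at 1280 and 1081 CPM in ECs, 818 CPM in mural cells and 43.4 and 24.5 CPM in intermediate cells. Stat2 stood at 223 CPM in Tie2-GFP ECs and 19.8 CPM in intermediate cells.

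The receptor chains differed among themselves. Ifnar1, a chain of the type I interferon receptor, stood at 134 CPM in Tie2-GFP ECs and 25.1 CPM in intermediate cells, a 5.32-fold difference (3.74 to 7.83), and at 98.1, 60.2 and 57.2 CPM in NG2-DsRed ECs, mural and intermediate cells. Ifngr1, of the interferon gamma receptor, stood at 95.8 and 36.5 CPM in Tie2-GFP ECs and intermediate cells, a 2.62-fold difference (1.93 to 3.63), and at 116, 123 and 49.0 CPM in the NG2-DsRed classes in the same order. These chains were named after their values were seen. Ifnar2, the partner of Ifnar1, stood at 259 and 307 CPM in ECs, 138 CPM in mural cells and 301 and 339 CPM in intermediate cells, 2.21-fold higher in NG2-DsRed ECs than mural cells (1.59 to 3.14). Il10rb, which pairs into the lambda interferon and IL-10 receptors, stood at 115 and 226 CPM in ECs, 57.2 CPM in mural cells and 323 and 604 CPM in intermediate cells.

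Ligand transcripts were scarce in the counts. Of 17 interferon ligand genes 15 had no UMI in any class of either library. Ifnk had 45 UMIs, all in 30 of the 87 Tie2-GFP intermediate cells (34.2 CPM), and Ifnz had 1 UMI in a mural cell. Ifnk lies within Mob3b on the opposite strand, and Mob3b stood at 194 CPM in Tie2-GFP intermediate cells, 371 CPM in NG2-DsRed intermediate cells and 14.0 CPM or less in the other classes. Whether the reads counted for Ifnk came from Ifnk was not tested. A count of 3 UMIs would have been 0.874 CPM in Tie2-GFP ECs and 12.2 CPM in NG2-DsRed intermediate cells, so low ligand levels were not detectable at this depth in the smaller classes.

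Other Ly6 and Ifitm genes did not follow the 3 Ly6 members as a family. Only 5 of 24 had enough UMIs in the Tie2-GFP library, with 2 at least 2-fold higher in ECs and 2 in intermediate cells. The share of all genes higher in ECs was 29.1%. Gpihbp1, which holds lipoprotein lipase on capillary endothelium, stood at 122 CPM in Tie2-GFP ECs and 15.8 CPM in NG2-DsRed ECs and was at 0 in the other classes, at least 53.4-fold higher in Tie2-GFP ECs than intermediate cells. Cd59a, an inhibitor of complement, stood at 291 and 70.1 CPM in ECs and 484 and 225 CPM in intermediate cells. Its paralogue Cd59b had 79 UMIs in Tie2-GFP intermediate cells and 4 in ECs, 51.6-fold higher in the former (19.4 to 194).

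Among ECs the members varied from barcode to barcode. The sum of B2m, H2-K1 and H2-D1 ran from 20.4 at the 10th percentile to 71.0 UMIs per 10000 at the 90th percentile of Tie2-GFP ECs, with a median of 39.0. In NG2-DsRed ECs it ran from 14.0 to 58.0, with a median of 25.6. The sum of the Ly6 members ran from 17.3 to 65.3 in Tie2-GFP and from 14.0 to 60.5 in NG2-DsRed, with medians of 34.5 and 33.7. The tenth of Tie2-GFP ECs with the most UMIs of a gene held between 26.3% (Ly6e) and 39.3% (Bst2) of its EC UMIs for the 9 members other than Ifitm1. Depth enters these shares, since Tie2-GFP ECs ran from 1033 to 32595 UMIs, and no share over all genes is given beside them.

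Genes with the most similar pattern were ranked by Pearson's r over Tie2-GFP ECs (log values, n = 379 barcodes of 1 library), with r over the 58 NG2-DsRed ECs beside it. These are descriptions, since barcodes of a library share its preparation and depth enters each value. The heavy chain H2-K1 was closest to H2-D1, with r = 0.44 and 0.45, then to Cd74 with r = 0.36 and 0.34. B2m was closest to Ifitm3 with r = 0.38 and 0.25, and to H2-D1 with r = 0.35 and 0.40. Ly6a was closest to Ly6c1 with r = 0.48 and 0.60, and Ly6e to Ly6a with r = 0.36 and 0.58. Bst2 was closest to Ly6e, with r = 0.34 and 0.62.

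Some likenesses held in 1 library only. Ifitm2 was closest to Ifitm3 with r = 0.47 in Tie2-GFP and 0.13 in NG2-DsRed, and Ifitm3 to the ribosomal gene Rpl6 with r = 0.53 and 0.18. Ifitm1 was closest to Cebpb with r = 0.53 in Tie2-GFP and 0.0035 in NG2-DsRed, followed by Mgp with r = 0.37 and 0.17 and by Cald1, a gene of contractile cells, with r = 0.33 and 0.19.

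ECs with at least 2 Cd74 UMIs carried more class I than ECs with none. This split by Cd74 was chosen after the likenesses were seen. It sets barcodes with at least 2 Cd74 UMIs (126 Tie2-GFP and 11 NG2-DsRed), called barcodes with Cd74, against barcodes with 0 (210 and 37). Barcodes with Cd74 were deeper, with medians of 9098 against 6732 UMIs in Tie2-GFP and 11654 against 7294 in NG2-DsRed, and the part of depth in the split was not tested. Erythroid markers summed to 11.2 CPM with Cd74 and 5948 CPM without it in Tie2-GFP, where only 4 of all 379 ECs held 2 or more erythroid UMIs. Further mural markers summed to 1150 against 2506 CPM in NG2-DsRed, while macrophage and leukocyte markers stayed at 22.5 CPM or less in every group. The part of these other cells was not tested. B2m stood at 1609 against 987 CPM in Tie2-GFP, 1.63-fold (1.53 to 1.74), and at 931 against 568 CPM in NG2-DsRed, 1.64-fold (1.29 to 2.08). H2-K1 stood at 1057 against 669 CPM, 1.58-fold (1.46 to 1.71), and at 1338 against 619 CPM, 2.16-fold (1.75 to 2.67). The NG2-DsRed EC with the most H2-K1 UMIs held 73 of the 432 in that class, and its Cd74 group is not given. Shares of thinned NG2-DsRed barcodes with an H2-K1 UMI were 81.5% with Cd74 and 71.5% without it. H2-D1 was 1.48-fold higher (1.41 to 1.55) in Tie2-GFP and 1.38-fold higher (1.19 to 1.60) in NG2-DsRed. ECs with 1 Cd74 UMI (43 Tie2-GFP and 10 NG2-DsRed) were left out of these ratios. In Tie2-GFP they held B2m at 1055, H2-K1 at 756 and H2-D1 at 2113 CPM, nearer to the group with 0. In NG2-DsRed they held 601, 518 and 1690 CPM in the same order, with H2-K1 below the 619 CPM of the group with 0.

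The members did not rise together across the Cd74 split. Bst2 was 1.40-fold higher (1.25 to 1.57) and 1.48-fold higher (1.16 to 1.86) in the barcodes with Cd74. The ratio for Ly6c1 was 0.980 (0.923 to 1.04) and 0.944 (0.788 to 1.13), both spanning 1. For Ly6e it was 1.06 (0.990 to 1.13) in Tie2-GFP and 1.63 (1.31 to 2.01) in NG2-DsRed. Ly6a was higher with Cd74 in both, 1.10-fold (1.03 to 1.18) and 1.41-fold (1.20 to 1.65). Ifitm3 had ratios of 1.08 and 1.05, and Ifitm2 of 0.928 and 1.31. Ifitm1 had ratios of 0.646 (0.450 to 0.919) in Tie2-GFP and 0.542 (0.218 to 1.19) in NG2-DsRed.

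Interferon-induced genes differed between libraries across the same split. The guanylate-binding protein gene Gbp2 was 2.75-fold and 3.96-fold higher with Cd74. H2-Q7 was 2.21-fold higher in Tie2-GFP (1.81 to 2.69) and 3.13-fold higher in NG2-DsRed (1.04 to 9.90). The NG2-DsRed ratio of H2-Q7 rests on 9 UMIs, found in 9.09% of the 11 barcodes with Cd74. Of the 37 barcodes without Cd74, 18.9% held an H2-Q7 UMI. Ifit1, Irf7 and Rsad2, antiviral genes of the type I response, were 1.68, 1.49 and 3.41-fold higher with Cd74 in Tie2-GFP, while in NG2-DsRed their ratios were 0.25, 0.44 and 0.24. In NG2-DsRed the barcodes with Cd74 held 5 UMIs of Ifit1 and 3 of Rsad2. Isg15 and Ifit3 had ratios of 1.03 (0.906 to 1.16) and 1.28 (0.835 to 1.97) in Tie2-GFP. In NG2-DsRed theirs were 0.462 (0.263 to 0.770) and 0.750 (0.294 to 1.71). The adhesion gene Vcam1 stood at 986 CPM with Cd74 and 22.5 CPM without it in NG2-DsRed, 43.9-fold (20.7 to 111). It was found in 36.4% of the 11 barcodes, and its Tie2-GFP ratio was 1.05 (0.726 to 1.52). Whether the barcodes with Cd74 are of the same kind in both libraries was not tested. The genes compared here were named after their values were seen. The NG2-DsRed values rest on 11 barcodes with Cd74, and the difference between libraries was not tested.

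**Figure D5:**
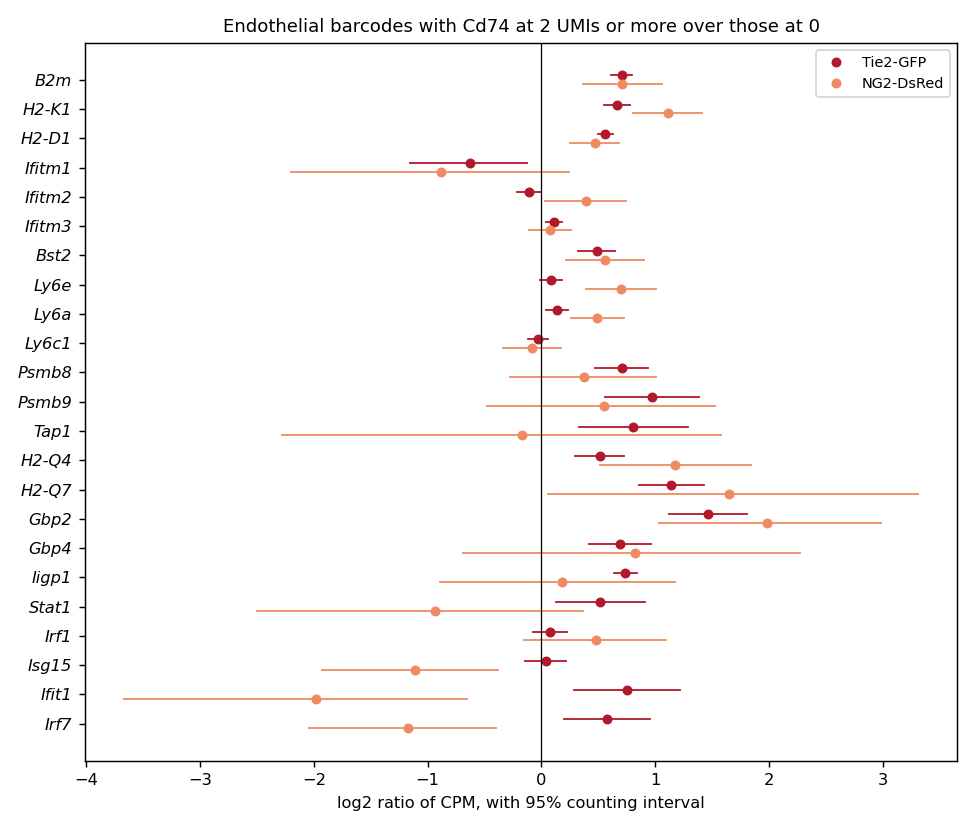
log2 ratio of CPM in ECs with at least 2 Cd74 UMIs over ECs with 0, for the members and 13 related genes in each library, with exact 95% counting intervals. B2m, H2-K1, H2-D1 and Bst2 lie above 0 in both libraries, and the intervals of Ly6c1 span 0 in both.

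The levels in ECs of the 2 libraries differed beyond counting error for several members. B2m was 1238 CPM in Tie2-GFP and 657 CPM in NG2-DsRed, Bst2 408 and 732 CPM, and Iigp1 1046 and 110.4 CPM. For H2-K1 and Ly6c1 the EC intervals of the libraries overlapped. Reporter line, the gate of any sort, library batch, software version, genes in the matrix and the count of ECs with mural genes all differ between the libraries. The source of these differences in level therefore cannot be told apart.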

How the data were processed

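The authors dissociated the stria vascularis of 1 pool of mice per line, sorted fluorescent cells where enrichment was needed, and made 1 droplet-based library from each. Per the labels the build was mm10 and bcl2fastq 2.20.0.422 was used, and the file headers of the deposited matrices name software versions 7.0.0 (Tie2-GFP) and 3.0.0 (NG2-DsRed). Whether intronic reads were counted is not given in the sources used here. The deposited values are raw UMI counts per gene and barcode.

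Every deposited barcode entered the rule, and the study's limits on genes, UMIs, mitochondrial and ribosomal shares were an alternative. A barcode that met the intermediate rule and another rule (2 in NG2-DsRed, 0 in Tie2-GFP) was put in no class. No doublet caller was run, and leaving out barcodes with markers of another class was an alternative. Counts were summed per class and divided by the UMIs of the class. Intervals are exact Poisson for levels, Clopper-Pearson for shares and conditional binomial for ratios, all at 95%. A count of 0 was bounded at 3 UMIs. A gene counted as different at 2-fold or more with at least 50 UMIs over both classes. It could pass that threshold through a single class, so the count for any list covers only the genes that passed. Thinned shares are hypergeometric expectations at 2535 UMIs. Python 3.11.15, numpy 2.4.6, scipy 1.17.1 and pandas 2.3.3 were used, and the scripts were tested on simulated data.

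Named were all members, and from each related list the 4 genes highest in Tie2-GFP ECs with those of the largest and smallest ratio to intermediate cells, plus the 3 genes most alike each member. Of these some are left unprinted for length, and genes outside the rule are described as chosen after seeing the data. The members and lists were chosen with earlier results of these data known.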

Additional observations from a re-analysis of the deposited data

Results flagged for a closer look

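Barcodes that met no class rule, 163 in the Tie2-GFP library and 21 in the NG2-DsRed library, lie outside the comparisons and still carried members above the level a count of 0 allows. In the Tie2-GFP library they held B2m at 408 CPM, H2-K1 at 253 CPM, H2-D1 at 356 CPM, Bst2 at 128 CPM, and Ifitm1, Ifitm2 and Ifitm3 at 124, 135 and 138 CPM. Ly6e stood at 83.4 CPM there, Ly6a at 17.9 CPM and Ly6c1 at 19.4 CPM. Markers of marginal cells, the epithelial layer facing the endolymph, summed to 6846 CPM in these barcodes and macrophage and leukocyte markers to 381 CPM. Further endothelial markers summed to 208 CPM and further mural markers to 47.6 CPM. Ifitm1 thus lay above its 44.0 CPM in Tie2-GFP ECs in barcodes with few mural marker UMIs.

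In the NG2-DsRed library the barcodes with no class held B2m at 353 CPM, H2-K1 at 368 CPM, H2-D1 at 736 CPM, Ifitm2 at 429.6 CPM, Ifitm3 at 967 CPM and Bst2 at 199 CPM. Ly6e stood at 61.4 CPM, Ly6a at 123 CPM and Ly6c1 at 169 CPM. Erythroid markers summed to 138381 CPM in these 21 barcodes, further mural markers to 4051 CPM and further endothelial markers to 783 CPM.

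Rtp4, an interferon-induced chaperone gene outside the members, went in opposite directions in the 2 libraries, with a log2 ratio of ECs to intermediate cells of 2.15 in Tie2-GFP and -0.69 in NG2-DsRed. The difference of 2.84 was not tested, since each library stands alone.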

How the results depend on the processing

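Ratios, levels and shares were recomputed under the alternatives set for them. The log2 ratio of Ifitm1 between ECs and intermediate cells in Tie2-GFP turned from 1.95 to -0.20 within the study's quality limits and to -2.04 without barcodes that hold markers of another class. Of 319 recomputed log2 ratios 276 stayed within the counting interval, 41 moved beyond it, and these 2 reversed. Among 400 recomputed levels 353 stayed within their interval and 47 moved beyond it. Of the 50 shares of barcodes with a UMI, 28 moved beyond their interval when barcodes were thinned and 22 stayed. Raising the threshold from 2-fold to 4-fold left 5 members higher in ECs than intermediate cells in Tie2-GFP, 4 higher in ECs than mural cells, 1 higher in mural than intermediate cells and 4 higher in ECs than intermediate cells in NG2-DsRed. Dividing ratios by the median ratio of all genes left 5 for the last comparison. The other 39 of 44 recomputed counts stayed within 1.5 times the reported count, with ranges of 8 to 10, 7 to 8, 2 to 2 and 6 to 10. No paired analysis was possible because each line has 1 library. Depth limits NG2-DsRed intermediate cells most, where 3 UMIs over 23 barcodes correspond to 12.2 CPM.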
